A study of Mus musculus with 3 samples.

Results

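The comparison set murine bone marrow derived macrophages (BMDMs) treated for 1 hour with purified lipoproteins of Borrelia burgdorferi (BbLP), the LP1 library, against the untreated library (Ctrl, titled UI in the labels). Its members were all barcodes of these 2 of the 3 libraries that passed the cell limits, and all genes measured in them. Barcodes with more than 500 unique molecular identifiers (UMIs), more than 500 genes and under 5% of UMIs in mitochondrial genes were kept, which left 6071 of 6123 barcodes in Ctrl and 5065 of 5119 in LP1. UMIs were summed per gene over the kept cells and scaled to a total of 1000000 per library (counts per 1000000, CPM). A gene was measured where it reached 10 CPM in at least 1 of the 2 libraries, which held for 7747 of 32285 genes.

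The cells came from the pooled marrow of female C3H/HeN mice aged 6 to 8 weeks and were grown into macrophages in conditioned medium. All groups were wild-type cells of this strain. LP1 cells received 1 µg/mL of BbLP for 1 hour, and a further library, LP4, received the same dose for 4 hours. Ctrl cells received PBS and were, per the study's methods, collected at 4 hours, so time in culture and treatment cannot be told apart in LP1 against Ctrl. Per the study's single-cell methods, separate wells with cells of different mice were treated independently, and their cell suspensions were pooled for capture. Each condition was therefore 1 library of pooled cells. The differences therefore have no replicate check and carry no p-value, and the 95% intervals given here cover counting error only.

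Borrelial lipoproteins are recognised by Toll-like receptor 2 (TLR2), which pairs with TLR1 and is assisted by CD14. The receptor recruits MyD88 and IRAK kinases, and the signal runs on to the NF-kB transcription factors and to the MAP kinases. In macrophages the earliest transcripts to follow are immediate early genes such as Fos, Jun and Egr1, inhibitors that end the signal such as Nfkbia, and chemokine and cytokine genes. Interferon-stimulated genes usually come later, through secreted interferon.

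Ctrl and LP1 differed in depth. The kept cells held 35688939 UMIs in Ctrl and 52475723 in LP1, with a median of 5133 and 9343 UMIs per cell. Of all UMIs, mitochondrial genes took 2.0% in Ctrl and 2.9% in LP1, and ribosomal protein genes 11.4% and 9.72%. Thinned to 2000 UMIs per cell, the median cell showed 1070 genes in Ctrl and 1059 in LP1. 9 barcode sequences occurred among the kept cells of both libraries. All 10 macrophage markers on the list used were measured, with a median log2 ratio of -0.01 and a range from -0.84 (Mertk) to 1.04 (Cd14). Adgre1, which encodes F4/80, was at 169.5 CPM in Ctrl and 192.1 in LP1, and Csf1r at 769 and 522 CPM. None of the 10 lymphocyte, 7 stromal and 8 erythroid or mast cell markers reached 10 CPM. Cells with over 1% of their UMIs in neutrophil markers numbered 32 in Ctrl and 24 in LP1.

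Most genes differed little after 1 hour. The median log2 ratio of LP1 over Ctrl was -0.02 with a standard deviation of 0.32 over the 7747 genes, and 5189 genes (67.0%) differed by less than 1.2-fold. At least 1.5-fold higher in LP1 were 319 genes, or 4.12% of those measured, and at least 1.5-fold lower were 212 genes, or 2.74%. At the limit of 2-fold, 54 genes (0.697%) were higher and 36 genes (0.465%) were lower. Just inside and just outside the 1.5-fold limit lay Exosc7 at a log2 ratio of 0.59 and Arf1 at 0.58. The ratios are shown for every gene in the plot against mean CPM.

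**Figure D1:**
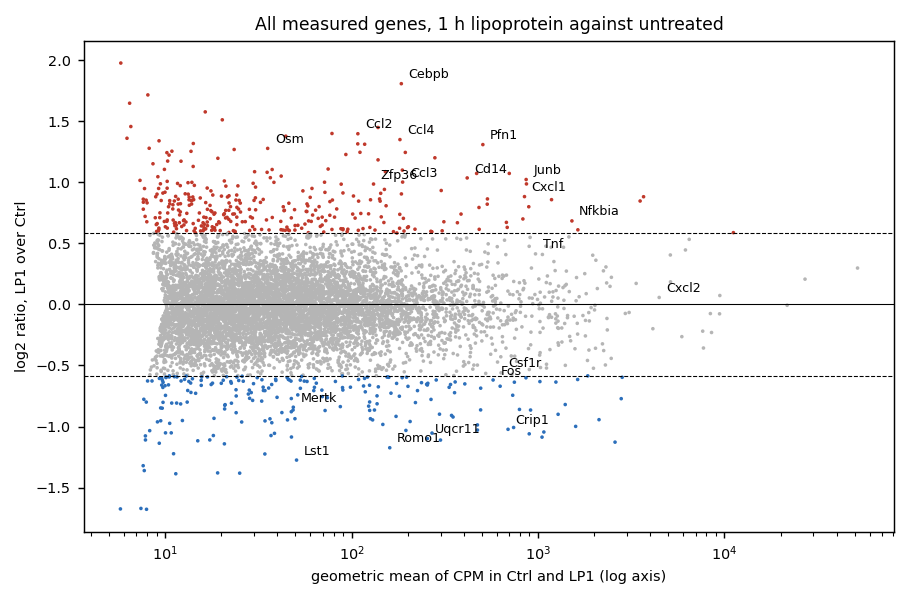
Each point is 1 of the 7747 measured genes, with the geometric mean of its CPM in the 2 libraries on a log axis and its log2 ratio of LP1 over Ctrl on the vertical axis. Red and blue points lie past the 1.5-fold limits (dashed lines). Cebpb is the highest of the genes named in the plot, while Cxcl2 sits close to 0.

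Cebpb (ENSMUSG00000056501, chromosome 2, 167688915 to 167690418 in GRCm38), a leucine zipper factor of inflammatory and myeloid gene expression, showed the largest ratio among named genes with at least 50 CPM. It stood at 98.8 CPM in Ctrl and 346 CPM in LP1, a 3.50-fold difference with a log2 ratio of 1.81 (1.75 to 1.86). The 14 genes that followed it included 3 secreted factors, Ccl2, Ccl4 and Osm. Others encode general cell functions: Gnb2, a G protein beta subunit (83.9 and 229 CPM), Arf5, a small GTPase of vesicle traffic (48.3 and 127.5 CPM), Cers2, a ceramide synthase (27.5 and 71.5 CPM), and Pfn1, the actin-binding protein profilin (321 and 796 CPM). Selenok, Srp9, Btf3, Lgmn and Card19 lay between log2 ratios of 1.18 and 1.31. Btf3 is uncertain, since 23.1% of the 50-base stretches at its 3' end also occur in transcripts of other genes.

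Of the 15 lowest named genes, 6 encode small subunits of the respiratory chain or ATP synthase (Ndufa2, Ndufa3, Uqcr10, Uqcr11, Atp5j2 and Atp5k). Romo1, an inner mitochondrial membrane protein, stood at 240.7 CPM in Ctrl and 106.6 in LP1, a log2 ratio of -1.17 (-1.22 to -1.13). Lst1, a small leukocyte membrane protein, was lowest, at 78.8 and 32.6 CPM, but its log2 ratio of -1.27 became -0.58 in cells of 5000 to 10000 UMIs and -0.39 relative to genes of like transcript length and GC. Atox1, a copper chaperone, Crip1, a LIM domain protein, Ubl5, a ubiquitin-like protein, and Hcst, the adaptor DAP10, lay between log2 ratios of -1.02 and -0.95, and Hcst became -0.09 relative to genes of like length and GC. Hist1h4d belongs to a family of near-identical histone genes, and its value is uncertain for that reason.

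Among receptors, Cd14, the co-receptor that hands lipoproteins to TLR2, showed the largest ratio, with 291 CPM in Ctrl and 597 in LP1 (log2 ratio 1.04, 1.00 to 1.07). Tlr2 itself differed little, at 107 and 118.5 CPM. Ly96, the MD-2 partner of TLR4, was higher at 9.89 and 15.9 CPM, whereas Tlr8, an endosomal RNA sensor, was lower with a log2 ratio of -0.81. Among cells of 5000 to 10000 UMIs the log2 ratio of Tlr8 was -0.38, short of the limit. Of the 8 measured receptor genes 2 were at least 1.5-fold higher and 1 lower. Of 16 measured adaptors and proximal kinases, 1 passed the limit, Ube2n, the ubiquitin-conjugating enzyme that works with TRAF6 (43.5 and 67.0 CPM). Over all measured genes, 4.12% were at least 1.5-fold higher and 2.74% lower. In this list and those that follow, 1 gene past the limit is close to that share. Myd88 stood at 15.4 and 21.9 CPM.

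No NF-kB subunit or IKK gene was past the 1.5-fold limit among 8 measured, and their median log2 ratio was -0.12. Nfkb1, which encodes p105 and p50, was at 1257 CPM in Ctrl and 1303 in LP1. Of the 11 inhibitors and feedback genes, 1 was at least 1.5-fold higher. This was Nfkbia, the IkB-alpha gene, at 1199 and 1926 CPM (log2 ratio 0.68, 0.67 to 0.70). Tnfaip3, encoding the deubiquitinase A20, stood at 462 and 458 CPM. Nfkbid, a nuclear IkB protein, was at 148.8 and 111.9 CPM, short of the limit.

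Promoters of several of these genes carry NF-kB binding motifs. The 250 bases before the start of each gene were searched on both strands in the RefSeq promoter table (GRCm38.p6) for the NF-kB consensus, matches within 1 site being allowed to overlap. Among measured genes of the signalling, transcription factor and secreted factor lists, 74 had a window and 22 had a match. The consensus was present in 7.25% of all 32851 windows, in 9.29% of the windows of measured genes, in 9.72% of those of genes at least 1.5-fold higher and in 8.2% of those of genes at least 1.5-fold lower. Stretches of 30 bases are given for 5 genes, because the motif is alike in them while their log2 ratios ran from 1.09 to 0.06. Over all 22 genes with a match the log2 ratios ran from 1.09 (Sod2) to -0.68 (Fosb). The capitals mark the match.
Nfkbia, chr12:55492657-55492686, minus strand: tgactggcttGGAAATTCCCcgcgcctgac
Cxcl1, chr5:90891164-90891193, plus strand: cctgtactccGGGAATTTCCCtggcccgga
Cxcl2, chr5:90903792-90903821, plus strand: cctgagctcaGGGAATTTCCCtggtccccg
Sod2, chr17:13007746-13007775, plus strand: cggggcggacGGGGTTCCCCgaggcggggc
Tlr2, chr3:83841762-83841791, minus strand: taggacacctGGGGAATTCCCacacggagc

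The matched bases are the same in Cxcl1 and Cxcl2, neighbouring genes on chromosome 5 for ligands of the neutrophil receptor CXCR2. Cxcl1 stood at 623 CPM in Ctrl and 1149 in LP1 (log2 ratio 0.88), and Cxcl2 at 4378 and 4553 CPM (0.06). A match is a description of the sequence only.

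MAP kinase genes also varied little. Of 14 measured, 1 passed the limit, Mapk3, which encodes ERK1 (54.3 and 89.1 CPM). The dual-specificity phosphatases switch MAP kinases off. Of 7 measured, Dusp1 alone was at least 1.5-fold higher, at 390.8 CPM in Ctrl and 598.5 in LP1. The AP-1 family was split. Junb was at 605.6 and 1231 CPM (log2 ratio 1.02) and Maff at 36.1 and 56.0 CPM, while Fos was at 711.5 and 463 CPM (-0.62) and Fosb at 124.7 and 77.9 CPM (-0.68). Jun, at 339 and 263 CPM, did not reach the limit. Among cells of 5000 to 10000 UMIs the log2 ratios of Fos and Fosb were -0.44 and -0.19, short of the limit, while Junb was at 1.22.

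Of 11 measured Egr, Nr4a and other immediate early genes, 3 were at least 1.5-fold higher and none lower. These were Ier5 (50.6 and 101.3 CPM) and the antiproliferative genes Btg2 (44.1 and 85.2 CPM) and Btg1 (248 and 377 CPM). Egr1, a zinc finger factor induced by ERK signalling, was at 287 and 315 CPM. Nr4a1, a nuclear receptor, had a log2 ratio of 0.34. Of 16 C/EBP, Kruppel-like and Id factors, 3 were at least 1.5-fold higher, Cebpb, Cebpd (7.87 and 14.2 CPM) and Id3, an inhibitor of helix-loop-helix factors (140.4 and 234 CPM).

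Secreted factors held some of the largest ratios. Of 8 measured CC chemokines, 4 were at least 1.5-fold higher, and the other 4 lay between log2 ratios of -0.15 and 0.00. Ccl2, the monocyte attractant, stood at 66.5 CPM in Ctrl and 175 in LP1 (log2 ratio 1.40, 1.33 to 1.46). Ccl4 and Ccl3, attractants of monocytes and lymphocytes, stood at 113.8 and 290.1 CPM and at 132.7 and 265.8 CPM. Ccl7 was at 161.8 and 251.5 CPM. Of 5 CXC chemokines, Cxcl1 was past the limit. Cxcl10, an interferon-linked chemokine, was at 20.1 and 19.9 CPM.

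Of 11 measured cytokines, 1 passed the limit, beside 4.12% of all measured genes at least 1.5-fold higher. Osm, encoding oncostatin M of the IL-6 family, was at 22.8 and 55.2 CPM (log2 ratio 1.28, 1.16 to 1.39). Tnf stood at 840 and 1119 CPM and Il1b at 391.5 and 448 CPM, both above 0 on the log2 scale but under the limit. Among cells of 5000 to 10000 UMIs the log2 ratio of Il1b was 0.85, past the limit, and that of Tnf 0.42. Tgfb1, an anti-inflammatory cytokine, was at 481 and 342 CPM. Of 11 factors that act on the decay of cytokine mRNAs, Zfp36, encoding tristetraprolin, was past the limit at 93.2 and 184.5 CPM. Socs3, an inhibitor of JAK-STAT signalling, was at 52.3 and 98.9 CPM.

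**Figure D2:**
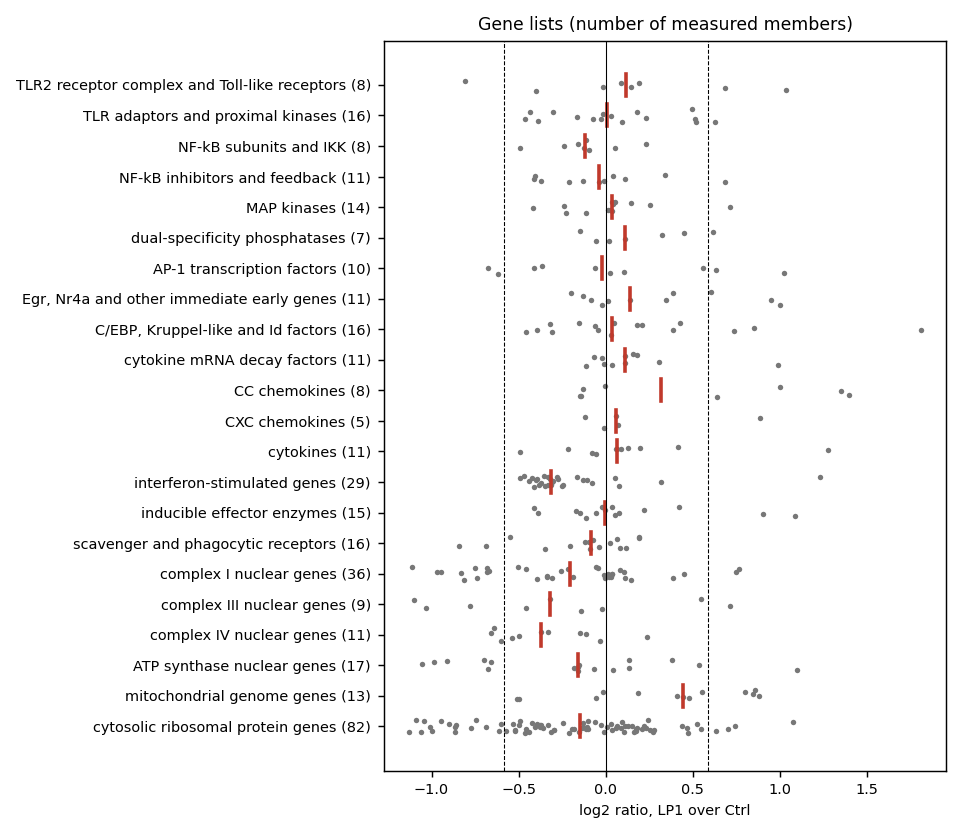
Each grey point is 1 measured gene of a list, placed by its log2 ratio of LP1 over Ctrl. Red bars are list medians and dashed lines the 1.5-fold limits. CC chemokines split into 4 genes above the limit and 4 near 0, and interferon-stimulated genes lie mostly to the left of 0.

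Interferon-stimulated genes were not higher after 1 hour. Of 29 measured, 25 lay below 0 and 4 above, with a median log2 ratio of -0.32, and 1 was past the limit. That gene was Bst2, which encodes the antiviral membrane protein tetherin, at 60.9 CPM in Ctrl and 142.6 in LP1. Rsad2, encoding viperin, was at 129.5 and 106.8 CPM, and Ifit1 at 39.4 and 32.0 CPM. The direction depended on cell depth: among cells with 5000 to 10000 UMIs in both libraries the median was 0.24.

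Of 15 inducible effector genes, 2 were at least 1.5-fold higher. Sod2, the mitochondrial superoxide dismutase, was at 104 and 221 CPM, and Hilpda, a lipid droplet protein, at 135 and 253 CPM. Acod1, the itaconate enzyme, was at 387 and 344.5 CPM, and Ptgs2, encoding cyclooxygenase 2, at 58.9 and 78.7 CPM. None of 8 inflammasome genes passed the limit. Nlrp3 stood at 573 and 533 CPM.

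Receptors that take up particles and dying cells did not share 1 direction. Of 16 measured, none was at least 1.5-fold higher and 2 were lower. Mertk, a receptor for apoptotic cells, stood at 65.2 CPM in Ctrl and 36.4 in LP1 (log2 ratio -0.84, -0.93 to -0.75), and Marco, a scavenger receptor, at 45.5 and 28.3 CPM. Csf1r, the receptor for the macrophage growth factor, was at 769 and 522 CPM. Within cells of 5000 to 10000 UMIs the log2 ratio of Mertk was -0.03 and that of Csf1r -0.34. In cells of over 10000 UMIs they were -0.86 and -0.59, so the Mertk difference was seen mainly in the deepest cells.

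Nuclear genes of respiratory complexes I, III, IV and ATP synthase lay on both sides of 0 and more often below it. For complex I, 2 of 36 genes were at least 1.5-fold higher and 10 lower, with a median of -0.20. For complex III, 1 of 9 was higher and 3 lower. For complex IV, 3 of 11 were lower and none higher, and for ATP synthase 1 of 17 was higher and 6 lower. Complex II and cytochrome c ran the other way, with 4 of 5 genes above 0, a median of 0.36 and 1 gene, Sdhd, past the limit. The extremes were wide apart within 1 complex. Atp5g2, a subunit of the c-ring, stood at 127.8 CPM in Ctrl and 274 in LP1, whereas Atp5j2 stood at 389 and 187 CPM.

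Transcripts of the mitochondrial genome more often lay above 0, with 4 of 13 at least 1.5-fold higher, none lower and a median of 0.45. In all, 9 lay above 0 and 4 below, the lowest being mt-Nd4l at -0.51 and mt-Atp8 at -0.50. mt-Atp6 stood at 2712 and 4999 CPM and mt-Cytb at 877 and 1591 CPM. Of 82 cytosolic ribosomal protein genes, 4 were at least 1.5-fold higher and 16 lower. Rpl9, at 483 and 1017 CPM, and Rpl41, at 3827 and 1751 CPM, marked the ends. Ribosomal protein genes have many processed pseudogenes, and single members are uncertain where reads are shared.

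These ratios moved with transcript length. Genes whose longest GENCODE transcript had up to 500 bases had a median log2 ratio of -0.69 (48 genes, of which 27 at least 1.5-fold lower and 0 higher). The median was -0.14 for 500 to 750 bases, 0.09 for 750 to 1000 bases and -0.04 above 4000 bases. Among nuclear respiratory chain genes, those of up to 750 bases had a median of -0.34 (30 genes) and longer ones -0.07 (48 genes). Among ribosomal protein genes the medians were -0.52 (27 genes) and -0.01 (55 genes). The median also declined from 0.08 in the lowest to -0.13 in the highest of 5 classes of GC content. Taken relative to genes of like length and GC, a setting chosen after seeing the data, the complex I median was -0.08, the ATP synthase median -0.08, the mitochondrial genome median 0.11 and the CC chemokine median 0.20. The complex IV median was -0.38 (-0.37 as measured), and the complex III median -0.24 (-0.32 as measured). In this setting the log2 ratio of Uqcr10 was -0.17, of Uqcr11 -0.24 and of Atp5k -0.10, all short of the limit, while Ndufa2 at -0.77, Ndufa3 at -0.91 and Atp5j2 at -1.24 were past it. Of higher genes, Ccl7 at 0.19, Cxcl1 at 0.57 and B2m at 0.24 were also short of the limit, and Ccl2 at 0.96 was past it. The part of length, GC and depth in these results was not tested.

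**Figure D3:**
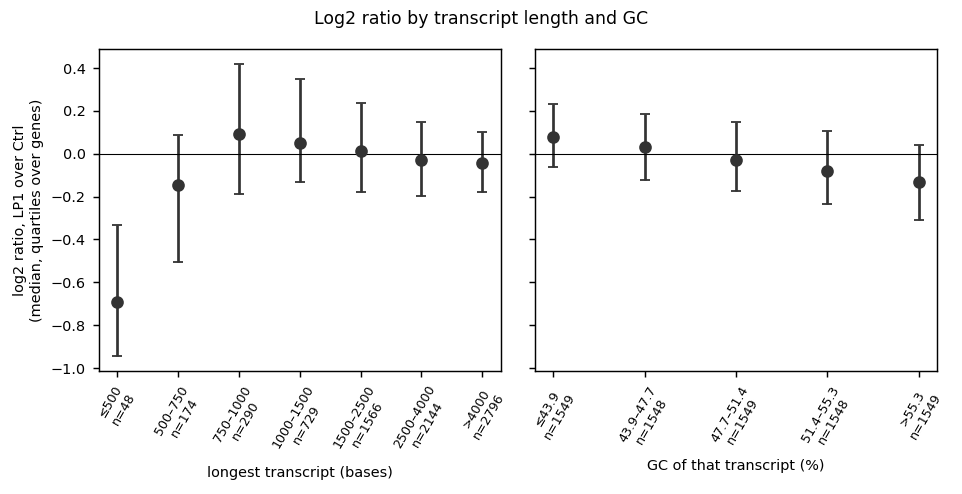
Points are the median log2 ratio of LP1 over Ctrl over genes in classes of longest transcript length (left) and its GC content (right), and bars span the quartiles over genes. The class of up to 500 bases lies at -0.69, apart from all longer classes.

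Other gene groups differed in how many genes passed the limit, which 4.12% of all measured genes did upwards and 2.74% downwards. Of 16 cell cycle genes, 5 were at least 1.5-fold higher, led by Cdk1 at 6.87 and 16.0 CPM, and Pcna, the replication clamp, stood at 104.5 and 196 CPM. Their median of 0.30 turned to -0.74, and the log2 ratio of Cdk1 to -0.30, among cells of 5000 to 10000 UMIs. Of 12 genes of antigen presentation 3 were higher: H2-D1, B2m and Psmb9. H2-D1 is uncertain, since C3H mice carry another H-2 haplotype than the reference strain. Of 37 proteasome genes, 3 were higher and 1 lower. Of 15 G protein subunit genes, Gnb2 and Gng10 (33.4 and 57.0 CPM) were higher, and of 17 Arf and Arl GTPases Arf5 alone. Among sphingolipid genes, Cers2 and Sptssa (63.5 and 109.1 CPM) were higher. Of 22 actin cytoskeleton genes, Pfn1 and Tmsb4x were higher. Of 18 antioxidant genes, Prdx1 (1324 and 2021 CPM) and Nqo1 were higher and Sod1 was lower (146 and 91.9 CPM). Among cells of 5000 to 10000 UMIs the log2 ratios of Prdx1 and Nqo1 were 0.003 and 0.31, short of the limit. Of 12 measured histone genes, 1 was higher and 7 were lower, and these values are uncertain because many histone genes have near-identical copies. Apoe and Hk2 were the lower genes among 16 cholesterol and 16 glycolysis genes, but Apoe turned to a log2 ratio of 0.33 among cells of 5000 to 10000 UMIs. None of 28 lysosome, 10 heat shock or 7 NADPH oxidase genes passed the limit in either direction.

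Shares of cells with a UMI were compared at a depth of 2000 UMIs per cell. Such a share rises with the mean level even where all cells are alike. Neither the sums nor the shares therefore tell whether more cells held a transcript or each cell held more of it. Cebpb was seen in 18.1% of Ctrl cells (17.1 to 19.1) and 48.7% of LP1 cells, the lower bound of the latter being 47.3%. Thinning left out 122 Ctrl and 13 LP1 cells, and without it the shares were 41.7% and 91.6%. Junb was seen in 69.0% and 89.0% of thinned cells (91.9% and 99.6% unthinned), and Cxcl1 in 63.3% and 77.7% (82.9% and 93.8%). Ccl2 was seen in 11.5% of Ctrl cells and 22.4% of LP1 cells (24.0% and 47.9%), and Osm in 4.54% and 10.4% (11.1% and 31.3%).

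The share was lower in LP1 for Fos at 65.0% and 52.6%, though not unthinned at 85.5% and 87.6%. It was also lower for Uqcr11, at 52.0% and 29.2% thinned and 81.5% and 77.9% unthinned. Thinned cells rich in neutrophil markers numbered 21 in Ctrl and 20 in LP1. Ccl2 was seen in 0 of them in either library, which allows a share of up to 14.3% and 15.0%. Cxcl1 was seen in 1 cell of each. Other genes were common in these cells, with Tnf in 15 and 15, Nfkbia in 18 and 17 and Sod2 in 3 and 11. The cells are therefore no measure of background for such genes. Cebpb was seen in 2 and 5 of them and Junb in 5 and 5. All kept cells rich in neutrophil markers, 32 in Ctrl and 24 in LP1, had a median depth of 2940 and 5877 UMIs. Some of these were left out by thinning. The 5% of thinned cells with most Ccl4 UMIs held 54.3% of them in Ctrl and 47.7% in LP1. For Cxcl1 these shares were 20.0% and 17.7%, and for Arf5, which is no chemokine, 57.1% and 30.9%. A gene seen in few cells has a high value by this measure. Arf5 was seen in 9.08% of thinned Ctrl cells and 22.8% of thinned LP1 cells. The measure therefore does not show by itself that a gene was concentrated in few cells.

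**Figure D4:**
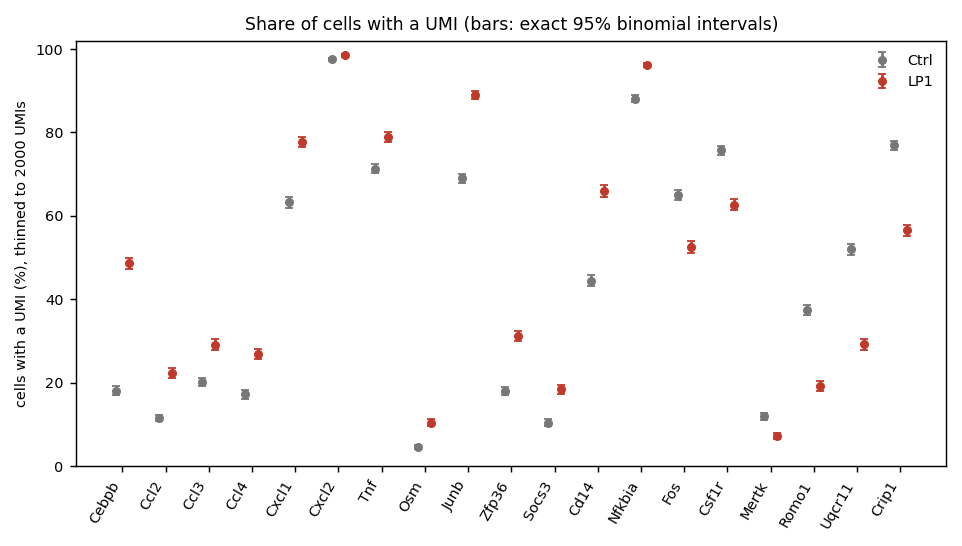
Points are the percentage of cells with at least 1 UMI of a gene after thinning to 2000 UMIs per cell, for Ctrl (grey) and LP1 (red), with exact 95% binomial intervals. Cebpb shows the widest gap of the genes plotted, from 18.1% to 48.7%.

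The counts over depth ranges given here cover only genes past the 1.5-fold limit in all cells. These genes were chosen by the ratio over the same cells, which favours the same sign within the ranges. Apoe, Cdk1 and the interferon-stimulated median turned in sign with depth, as given above. Of the 319 higher genes, 302 were above 0 within each of 3 depth ranges (up to 5000, 5000 to 10000 and over 10000 UMIs), and of the 212 lower genes 197 were below 0 in each. Past the 1.5-fold limit in each of the 3 ranges were 149 of the higher and 107 of the lower genes. Cebpb lay between 1.87 and 1.99 in the 3 ranges, Junb between 1.07 and 1.22, and Ccl4 between 1.69 and 2.52. Romo1 lay between -1.27 and -0.92.

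Levels at 4 hours, which share the Ctrl library, are given beside those at 1 hour. Cebpb stood at 98.8, 346 and 1657 CPM in Ctrl, LP1 and LP4, and Ccl4 at 113.8, 290.1 and 2524 CPM. Phlda1, an early response gene, stood at 68.4, 170 and 74.4 CPM, and Osm at 22.8, 55.2 and 28.5 CPM. Junb stood at 605.6, 1231 and 508.5 CPM, so that LP1 was the highest of the 3 libraries for these 3 genes. Fos stood at 711.5, 463 and 24.6 CPM. Uqcr11 stood at 373, 174 and 175 CPM and Romo1 at 240.7, 106.6 and 117 CPM, whereas Ndufb7, a further complex I subunit, stood at 422, 264 and 188 CPM.

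**Figure D5:**
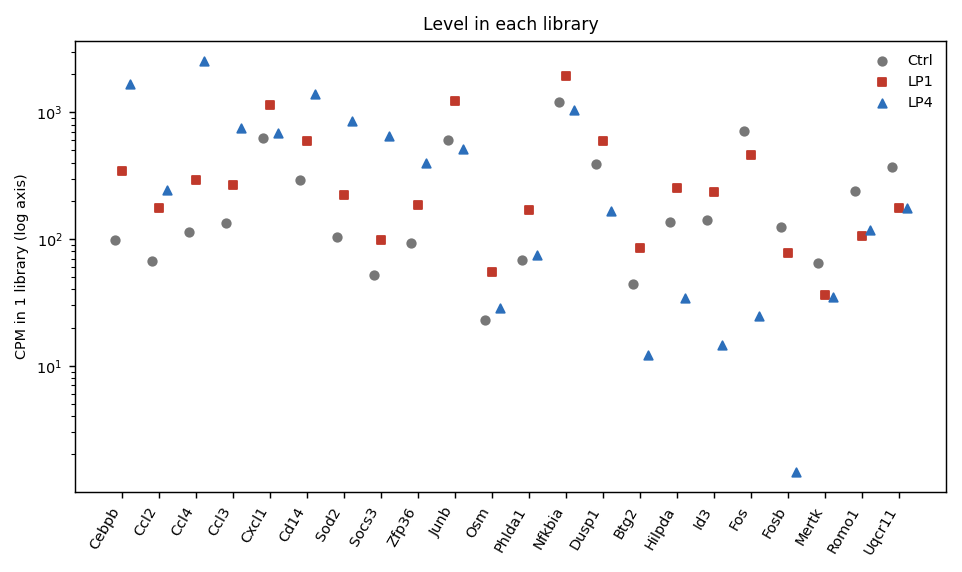
CPM of 22 genes in the Ctrl (grey circles), LP1 (red squares) and LP4 (blue triangles) libraries on a log axis, 1 library each. Cebpb and Ccl4 climb from Ctrl to LP1 to LP4, Osm, Phlda1 and Junb are highest in LP1, and Uqcr11 and Romo1 lie close together in LP1 and LP4.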

How the data were processed

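RNA of single BMDMs was captured with 10x Genomics 3' chemistry. The authors made the deposited files with Cell Ranger (7.1.0 in the submitters' processing notes) on mm10. Per the file headers, the authors deposited raw UMI counts per gene and barcode, aligned and deduplicated by that tool and not normalized. Depth per kept cell had a median of 5133 UMIs in Ctrl and 9343 in LP1.

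Kept barcodes were summed per library and scaled to 1000000. Intervals at 95% were exact Poisson for CPM, exact conditional binomial for log2 ratios and exact binomial for shares, and a count of 0 was set to a floor of 3. With 1 library per condition no test was made. Doublets were not removed. Named genes were the 15 highest and 15 lowest ratios among genes with at least 50 CPM, without mitochondrial, ribosomal protein and unnamed genes, beside list members with a known role. Gene lists and members were chosen with earlier results of these data known. Gene positions and transcript lengths came from GENCODE vM21, which matched 32235 genes. 12 other settings and 1 added after seeing the data were computed, TMM with edgeR 4.0.16 in R 4.3.3 and the rest with Python 3.11.15, numpy 2.4.6, scipy 1.17.1 and pandas 2.3.3 (seed 20). The ratio and interval code was tested on simulated data. Results for 2 genes are not reported here.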

Additional observations from a re-analysis of the deposited data

Results flagged for a closer look

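6 genes of the lists were past the 1.5-fold limit in opposite directions at 1 hour and 4 hours, both against the same Ctrl library. The share of all measured genes that did so is not given here, so 6 cannot be compared with a background. The difference between the times was not tested, since each time is 1 library. Btg2 had a log2 ratio of 0.95 in LP1 and -1.85 in LP4, Hilpda 0.91 and -1.98, Id3 0.74 and -3.27, Maff 0.63 and -1.08, and Dusp1 0.61 and -1.24. Hk2, a hexokinase of glycolysis, went the other way, with -0.61 in LP1 and 0.98 in LP4. Hk2 was short of the limit in LP1 under TMM (-0.54), under median of ratios (-0.54) and relative to genes of like length and GC (-0.46).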

How the results depend on the processing

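No paired analysis was possible because each condition is 1 library. The number of genes at least 1.5-fold higher (319) became 131 at a minimum of 50 CPM and 814 with 20 UMIs and no CPM minimum. The number at least 1.5-fold lower (212) became 138 under TMM, 140 under median of ratios, 418 in cells of 5000 to 10000 UMIs, 114 at 50 CPM and 1278 with no CPM minimum. Under TMM and median of ratios 427 genes were at least 1.5-fold higher. At 2-fold, 54 higher genes became 28 and 204 and 36 lower genes became 17 and 444 at these minimums, and 84 were lower in cells of 5000 to 10000 UMIs. The interferon-stimulated median (-0.32) was -0.24 under both scalings and 0.24 in cells of 5000 to 10000 UMIs, and the mitochondrial ribosomal median (0.02) was 0.092, 0.092 and -0.12. The histone median (-0.63) was 0.033 at 50 CPM. In cells of 5000 to 10000 UMIs the log2 ratio turned to 0.33 for Apoe, -0.83 for Ccna2, -0.30 for Cdk1, -1.18 for Rrm2 and 1.42 for S100a8. Relative to genes of like length and GC, chosen after seeing the data, it turned to 0.27 for Hist1h2ap, 0.14 for Mrpl52 and 0.049 for Mrps21. The cause of these shifts was not tested. Of 611 recomputed list medians 593 stayed within the interval of the median. That interval is set by ranked members and spans the whole list where members are few, as for the 5 CXC chemokines (-0.12 to 0.88). Staying within it therefore says little for short lists. Of 1495 recomputed gene ratios 1168 stayed within their counting interval, 319 left it and 8 turned. The settings of 50 CPM and of 20 UMIs with no CPM minimum cannot move a gene's own ratio. Their rows add to those that stayed. The ratios belong to 115 genes, all past 1.5-fold. Of these genes, 80 stayed past it relative to genes of like length and GC, 96 in cells of 5000 to 10000 UMIs and 106 under TMM. Of 148 shares of cells recomputed at 1000 or 4000 UMIs, 144 left their interval, as shares grow with depth. The lack of replicates limits every value, and counting error covers none of the spread between cultures.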
